A study of Saccharomyces cerevisiae with 6 samples.

Results

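The phosphoinositide kinases of budding yeast were examined as a group of 7 genes on 6 expression arrays, chosen by name from the 5449 genes that the arrays could be matched to. They are the PI 4-kinases STT4, PIK1 and LSB6, the PI4P 5-kinase MSS4, the PI 3-kinase VPS34 with its partner kinase VPS15, and the kinase FAB1, which acts on PI3P. Each was measured by 1 probe set, and all 7 were among the 5350 genes that passed a filter on dim values and were tested. Saccharomyces cerevisiae BY4741, a haploid of mating type a, carried a construct that made a mammalian kinase from a galactose-inducible promoter. In the PI3K group that protein was p110α-CAAX, a mammalian phosphoinositide 3-kinase catalytic subunit that ends in a membrane-targeting motif. In the KD group it was the same protein with the inactivating substitution K802R. Cultures of both groups grew in raffinose and then received 2% galactose for 4 h, and 3 biological replicates per group were profiled, 1 array for each. Both groups therefore carried the transgene and the inducer, and they differ by design in the substitution K802R. The level of the transgene was not analysed here, so equal production of the protein was not tested.

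Phosphoinositides are phosphorylated forms of the membrane lipid phosphatidylinositol, and each membrane of the cell is marked by its own set of them. In yeast, Stt4 makes PI4P at the plasma membrane and Pik1 makes it at the Golgi, and both are essential. Mss4 turns the plasma membrane pool of PI4P into the bisphosphate PIP2, which serves actin organisation, endocytosis and cell wall signalling. Vps34, with Vps15, makes PI3P on endosomes and in autophagy, and Fab1 turns PI3P into another bisphosphate on the vacuole. The mammalian kinase uses the product of Mss4 as its substrate and turns it into a trisphosphate that yeast does not normally make.

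The arrays had medians between 9.49 and 9.54 on the log2 scale and pairwise Pearson correlations of 0.965 to 0.995 over the genes tested. They did not vary by group alone. The first principal component of the values left after each group's mean was removed held 70.4% of that variance. It grouped KD 3 with PI3K 1 and PI3K 3, and PI3K 2 with KD 1 and KD 2, so differences are also given within each of these sides. In each side 1 group has a single array. The arrays also differed by gene length: the 535 longest genes tested had a median log2 fold change of -0.14 between PI3K and KD, against -0.00180 for all genes, and 75.9% of them were lower in PI3K. This did not follow the groups on every array. Relative to each gene's mean over the 6 arrays, these long genes had a median of 0.12 on KD 1 and 0.19 on KD 2. On KD 3 it was -0.09, close to the -0.06, -0.06 and -0.08 on PI3K 1, 2 and 3. The 5 markers of a cells had log2 values between 10.23 and 12.85. Of the markers of alpha cells, MF(ALPHA)1 lay between 4.32 and 5.42, MF(ALPHA)2 between 5.47 and 5.86 and SAG1 between 8.15 and 8.60, and IME1, a gene of diploids entering meiosis, between 6.63 and 7.21. STE3, the receptor gene of alpha cells, ran from 7.56 to 8.09 in PI3K and from 6.80 to 7.26 in KD, a difference of 0.85 (SE 0.18, limma adjusted p = 0.145) with the groups apart. With the array side as a covariate STE3 passed, at 0.71 (limma adjusted p = 0.0249), though the sides were found from the same values. BY4741 carries deletion alleles at its marker genes URA3, MET17, HIS3 and LEU2. Of these, URA3 and MET17 had values of at most 3.51 and 4.03. HIS3 and LEU2 lay between 10.96 and 11.23 and between 12.14 and 12.65, and the source of their signal was not tested. The log2 of the summed level of the a-cell markers ran from 13.86 to 13.96 in PI3K and from 13.98 to 14.12 in KD. That of the 6 markers listed for alpha cells and diploids ran from 11.03 to 11.33 in PI3K and from 11.33 to 11.64 in KD. The largest part of this sum is HO, which is expressed in haploids. HO ran from 10.31 to 10.85 in PI3K and from 10.89 to 11.28 in KD, above every other marker of that list. Its difference was -0.55 (SE 0.18, limma adjusted p = 0.236), whereas STE3 was higher in PI3K. The part of these marker shifts in the results below was not tested.

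No phosphoinositide kinase gene passed the test between PI3K and KD, in a comparison in which 0.243% of all genes passed (limma, Benjamini-Hochberg adjusted p under 0.05 over 5350 genes). The differences of the 7 genes ran from -0.42 for MSS4 to 0.16 for FAB1 on the log2 scale, with a median of -0.11. Without regard to sign their median was 0.161, against 0.158 for all genes tested. MSS4, STT4 and LSB6 stood at percentiles 88.4, 86.4 and 79.4 of size among all genes tested. The smallest difference that passed among all genes was 0.91. All 7 are long genes, at percentiles 72.3 to 99.7 of length among the genes tested. Their median log2 fold change was 0.00277 once a smooth trend with gene length was taken out of each array, a step added after seeing the data. MSS4, STT4 and LSB6 had lower values on every PI3K array than on any KD array. These 3 of 7 compare with 10.5% of all genes whose groups lay apart in that direction, and no member had its groups apart the other way (10.2% of all genes did). The same 3 genes had an unadjusted limma p under 0.05, as did 14.5% of all genes in either direction and 6.58% with a lower mean in PI3K. With the array side as a covariate no member passed the adjusted threshold, where 3.46% of all genes did. VPS34, its partner kinase VPS15, the PI3P kinase FAB1 and the Golgi kinase PIK1 had overlapping groups. All 7 genes had been chosen with earlier results of these data known, so the counts describe them and give no test of the group.

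**Figure D1:**
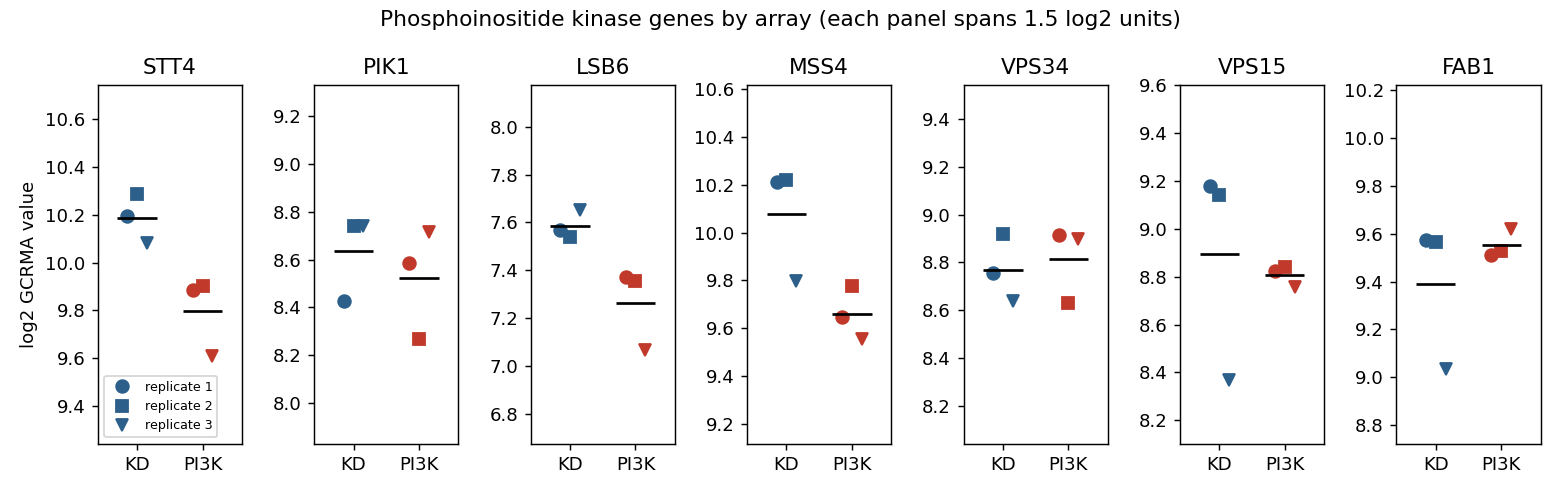
Log2 GCRMA value (y axis) of each phosphoinositide kinase gene on each array, with KD on the left and PI3K on the right of every panel, symbols for the replicate number and a line at each group's mean of 3 arrays. The groups lie apart for STT4, LSB6 and MSS4 and overlap for the other 4 genes, and KD 3 lies lowest for VPS15 and FAB1; each panel has its own level and levels of different genes are not comparable.

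MSS4 (YDR208W), which encodes the yeast PI4P 5-kinase, makes the lipid that p110α-CAAX consumes. Its log2 values were 9.65, 9.77 and 9.55 on PI3K 1, 2 and 3 and 10.21, 10.22 and 9.80 on KD 1, 2 and 3. The 3 PI3K values lay below all KD values, but KD 3 exceeded PI3K 2 by little and stood well below the other KD arrays. The mean was 9.66 ± 0.11 (SD, n = 3) in PI3K and 10.08 ± 0.24 in KD. The log2 fold change was -0.42 (SE 0.15, 95% interval -0.78 to -0.06), a level 1.34-fold lower in PI3K, with a limma adjusted p of 0.274. In size it stood at percentile 88.4 of all genes tested. Within the side of the arrays that holds KD 3 the difference was -0.20, and within the other it was -0.44. It was -0.32 once a smooth trend with gene length had been taken out of each array, a step added after seeing the data.

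OPY1, whose product has been reported to bind Mss4, differed by 0.04 on the log2 scale (SE 0.13, limma adjusted p = 0.928), less than its spread, and by -0.16 with the length trend removed. A gene next to MSS4 in the R64 gene table is UME6, a regulator of early meiotic genes. The other neighbour of MSS4, YDR209C, was not tested. UME6 had a log2 fold change of -0.42 of its own (limma adjusted p = 0.216), with values of 9.53, 9.44 and 9.25 in PI3K and 9.82, 9.94 and 9.72 in KD, so its groups did not overlap either. The neighbours of STT4 and LSB6 did not follow those genes in this way. Those of STT4, ACO1 and UBC12, were at 0.03 and -0.15, with overlapping groups. Of those of LSB6, GSH1 was at -0.16 with overlapping groups, and CHS6 at 0.43 was higher on every PI3K array than on any KD array. Over the 6 arrays the genes whose values, less their own means, lay closest to those of MSS4 were STO1, RPC53 and SET1, with root mean square differences of 0.0372, 0.0408 and 0.0421 on the log2 scale.

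STT4 (YLR305C), the PI 4-kinase that supplies Mss4 at the plasma membrane, showed a difference of like size. Its log2 values were 9.88, 9.90 and 9.61 in PI3K and 10.19, 10.29 and 10.08 in KD. PI3K 3 was the lowest array and KD 2 the highest, and the groups did not overlap. The means were 9.80 ± 0.16 (SD, n = 3) in PI3K and 10.19 ± 0.10 in KD. The log2 fold change was -0.39 (SE 0.13, 95% interval -0.69 to -0.08), or 1.31-fold lower in PI3K, with a limma adjusted p of 0.248. The difference was -0.33 within one side of the arrays and -0.34 within the other. STT4 is among the longest genes tested, at percentile 99.2 of length, and its log2 fold change was -0.25 with the length trend removed.

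The proteins that hold Stt4 at the membrane did not move as one. EFR3, its membrane anchor, had values of 8.91, 8.66 and 8.74 in PI3K and 9.25, 9.49 and 8.81 in KD. KD 3 lay among the PI3K arrays and the groups overlapped. The group means of EFR3 differed by -0.41 (SE 0.19, limma adjusted p = 0.384), by -0.26 without KD 2 and by -0.60 without KD 3. Those of YPP1, which links Stt4 to Efr3, differed by 0.12 (SE 0.13, limma adjusted p = 0.760). SFK1, a membrane protein that interacts with Stt4, had values of 8.68, 7.55 and 8.99 in PI3K and 7.66, 7.57 and 8.70 in KD. Its high arrays were PI3K 1, PI3K 3 and KD 3, the arrays of one side, and its log2 fold change of 0.43 (SE 0.44) was 0.03 once the side was a covariate.

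LSB6 (YJL100W) encodes the type II PI 4-kinase of yeast, which is not essential and whose product binds the actin regulator Las17. Its log2 values were 7.37, 7.36 and 7.07 in PI3K and 7.57, 7.54 and 7.65 in KD. As for STT4 and MSS4, PI3K 3 was the lowest array, and the groups did not overlap. The means were 7.26 ± 0.17 (SD, n = 3) and 7.59 ± 0.06, and the log2 fold change was -0.32 (SE 0.12, 95% interval -0.62 to -0.03, limma adjusted p = 0.310). This was a level 1.25-fold lower in PI3K. The difference was -0.43 within the side that holds KD 3 and -0.20 within the other. It was -0.26 with the length trend removed.

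Among the 7 genes, LSB6 and STT4 had the most similar courses over the arrays, with a root mean square difference of 0.0997 between their centred log2 values. The pair of STT4 and MSS4 followed at 0.105, and LSB6 and MSS4 differed by 0.190. Over all genes tested, the one closest to STT4 was UME6, a neighbour of MSS4, at 0.0407. The one closest to LSB6 was MSB1, a gene that acts in bud emergence, at 0.0154. The closest to PIK1 was ACS2 at 0.0420, to VPS34 CWH43 at 0.0277, to VPS15 YPL150W at 0.0428 and to FAB1 PBI1 at 0.0391. With 6 arrays, many of the 5350 genes follow any given pattern, so this likeness is a description.

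PIK1 (YNL267W), the PI 4-kinase of the Golgi, did not separate the groups. Its log2 values were 8.59, 8.27 and 8.72 in PI3K and 8.43, 8.74 and 8.74 in KD. The lowest arrays were PI3K 2 and KD 1, 1 from each group. PI3K differed from KD by -0.11 on the log2 scale (SE 0.16, 95% interval -0.49 to 0.27, limma adjusted p = 0.824), and it was 0.00277 with the length trend removed and 0.01 without PI3K 2. The difference was -0.09 within the side that holds KD 3 and -0.32 within the other. The interval reaches as far below 0 as the differences measured for STT4 and MSS4, so it does not exclude a difference of that size. FRQ1, the calcium-binding activator of Pik1, differed by 0.12 on the log2 scale (SE 0.22, limma adjusted p = 0.880). Its lowest value was 10.76 on KD 3 and its others ran from 11.25 to 11.57.

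**Figure D2:**
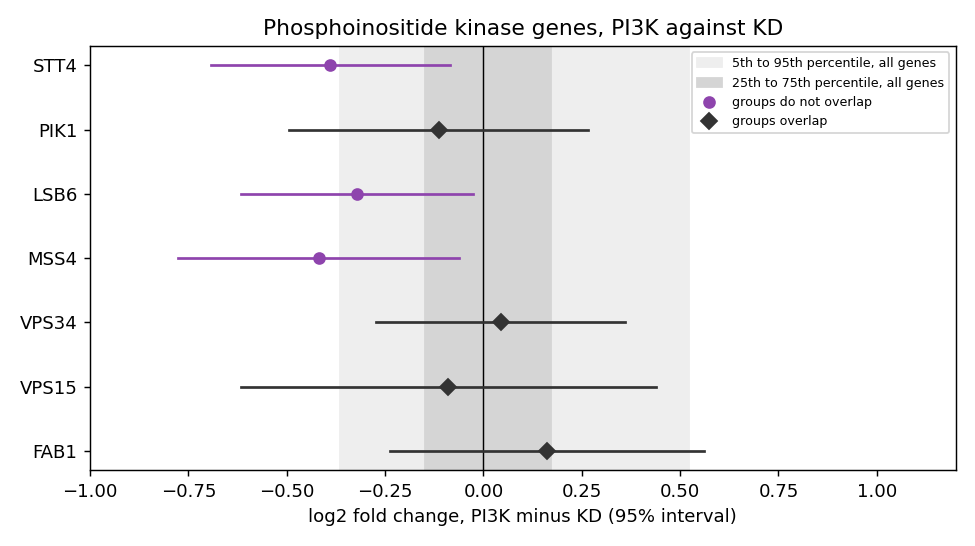
Log2 fold change of PI3K minus KD (x axis) for each phosphoinositide kinase gene, as points with 95% limma intervals from 3 arrays per group, over grey bands that hold the middle 50% and 90% of all genes tested. The intervals of STT4, LSB6 and MSS4 lie below 0 before adjustment for the number of genes, those of the other 4 genes include 0, and no gene passed after adjustment.

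VPS34 (YLR240W), the PI 3-kinase of yeast itself, makes PI3P from phosphatidylinositol and does not use the substrate of p110α. Its log2 values were 8.92, 8.63 and 8.90 in PI3K and 8.75, 8.92 and 8.64 in KD. Each group held high and low arrays over the same range. The means were 8.81 ± 0.16 (SD, n = 3) and 8.77 ± 0.14. The log2 fold change was 0.04 (SE 0.13, 95% interval -0.27 to 0.36, limma adjusted p = 0.928), at percentile 15.5 of size among all genes tested. The difference was 0.27 within the side that holds KD 3 and -0.21 within the other. Its sign turned without KD 3 (-0.02) and without PI3K 1 (-0.01).

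VPS15 (YBR097W), the protein kinase that Vps34 needs for its activity, varied more between replicates than between groups. Its log2 values were 8.82, 8.84 and 8.76 in PI3K and 9.18, 9.14 and 8.37 in KD. KD 3 was the lowest of the 6 arrays by a wide margin, while KD 1 and KD 2 were the highest. The groups differed by -0.09 on the log2 scale (SE 0.22, 95% interval -0.62 to 0.44, limma adjusted p = 0.911). It was -0.35 without KD 3 and 0.05 once the side was a covariate. Within the side that holds KD 3 it was 0.42, and within the other -0.32. Its residual SD of 0.33 stood at percentile 80.0 of all genes tested, the highest of the 7 genes.

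The subunits that join Vps34 and Vps15 in their complexes were measured too. VPS30, found in both complexes, differed by -0.17 on the log2 scale (SE 0.11, limma adjusted p = 0.558). VPS38, the subunit of the endosomal complex, differed by -0.24 (SE 0.16, limma adjusted p = 0.567), by -0.09 without KD 3 and by -0.016 with array weights. ATG14, the subunit of the autophagy complex, stood at 0.05 (SE 0.13), a sign that turned with quantile normalisation (-0.08). ATG38, which stabilises the autophagy complex, had values of 8.22, 8.21 and 8.26 in PI3K and 6.86, 7.86 and 7.94 in KD. All 3 PI3K values were above all KD values, and KD 1 was far below the rest. The group means differed by 0.68 (SE 0.28, limma adjusted p = 0.333), and by 0.33 without KD 1.

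FAB1 (YFR019W), which turns PI3P into the bisphosphate of the vacuole membrane, had log2 values of 9.51, 9.53 and 9.62 in PI3K. In KD they were 9.58, 9.57 and 9.03. KD 3 was again the lowest array and the other 5 lay close together. PI3K exceeded KD by 0.16 on the log2 scale (SE 0.17, 95% interval -0.24 to 0.56, limma adjusted p = 0.752). It was -0.02 without KD 3 and 0.31 with the length trend removed. Within the side that holds KD 3 it was 0.53, and within the other -0.04. FAB1 is the longest of the 7 genes, at percentile 99.7 of all genes tested.

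The partners of Fab1 did not separate the groups either. VAC14, the scaffold of the complex, differed by -0.20 on the log2 scale (SE 0.12, limma adjusted p = 0.513). VAC7, an activator of Fab1, differed by 0.12 (SE 0.15, limma adjusted p = 0.791). FIG4, the phosphatase that reverses the reaction, had values of 9.40, 9.51 and 9.33 in PI3K and 9.76, 9.61 and 8.76 in KD, which gave a difference of 0.03 (SE 0.26, limma adjusted p = 0.974). KD 3 was the lowest array for FIG4 as it was for FAB1 and VPS15.

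**Figure D3:**
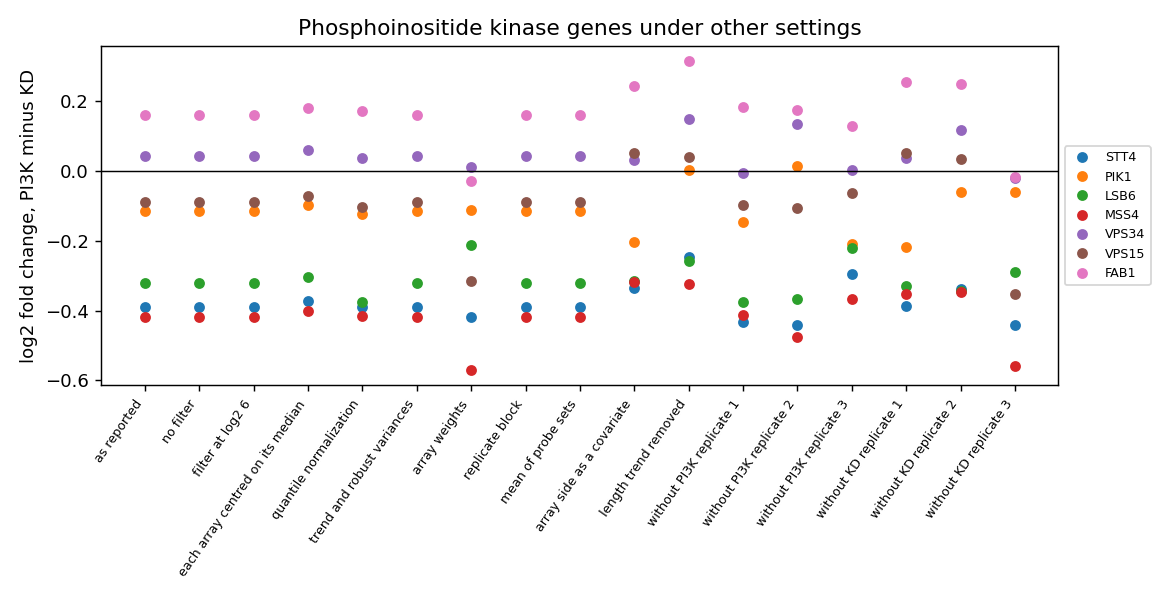
Log2 fold change of PI3K minus KD (y axis) for each phosphoinositide kinase gene under the reported setting and 16 others (x axis), 6 of which leave out 1 array. STT4, LSB6 and MSS4 lie below 0 under each of these settings, while the signs of PIK1, VPS34, VPS15 and FAB1 turn under some of them. The groups of STT4, LSB6 and MSS4 do not overlap, so leaving out or weighting arrays could not turn their sign.

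The sign of the difference was negative for STT4, LSB6 and MSS4 under each of the 16 other settings. All PI3K values of these genes lay below all KD values. Leaving out or weighting arrays therefore could not turn the sign, and those settings give no check of it. The difference ranged from -0.44 to -0.25 for STT4, from -0.38 to -0.21 for LSB6 and from -0.57 to -0.32 for MSS4. Array weights, which gave KD 3 a weight of 0.154 and KD 2 one of 5.75, brought these genes and VPS15 past the threshold, together with 52.5% of all genes tested. LSB6 was then at -0.21. The adjusted p of MSS4 ran from 0.000846 to 0.653 over the settings, that of STT4 from 0.00309 to 0.612 and that of LSB6 from 0.0417 to 0.633, and only array weights took them under 0.05. For PIK1 the sign turned under 2 of the settings, for VPS34 under 2, for VPS15 under 4 and for FAB1 under 2.

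Beyond the kinases, 55 genes that supply, remove or read phosphoinositides were followed as a list, all of them tested. None passed over all genes, with 33 higher and 22 lower in PI3K and a median log2 fold change of 0.06. With array weights 25 of them passed, where 52.5% of all genes did. A fit that included the side of the arrays called 1 of them, where it called 3.46% of all genes. The groups lay apart for 12 of the 55, or 21.8%, close to the 20.7% of all genes, and 6 had an unadjusted limma p under 0.05, or 10.9%, against 14.5% of all genes. The 11 partners of the kinases described with them had a median of 0.05, with 7 higher and 4 lower.

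The enzymes that break down the product of Mss4 showed small differences. INP51, INP52 and INP53, the synaptojanin-like phosphatases that remove phosphate from PIP2, had log2 fold changes of -0.00146 (SE 0.10), -0.06 (SE 0.13) and -0.13 (SE 0.13). The signs of INP51 and INP52 turned under some settings. The values of INP51 lay between 8.84 and 8.91 on all 6 arrays, the tightest among the named phosphatases. PLC1, the phospholipase C that cleaves the same lipid, had values of 9.02, 9.11 and 9.05 in PI3K and 9.39, 9.46 and 9.10 in KD. KD 3 lay among the PI3K arrays, and the log2 fold change was -0.26 (SE 0.13, limma adjusted p = 0.430).

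SAC1, the phosphatase that removes phosphate from PI4P, differed by 0.07 on the log2 scale (SE 0.10, limma adjusted p = 0.822). Over the 9 genes of the list of phosphatases and phospholipase C, 4 were higher and 5 lower, with a median of -0.00146. None of the 9 had its groups apart, where 20.7% of all genes did.

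**Figure D4:**
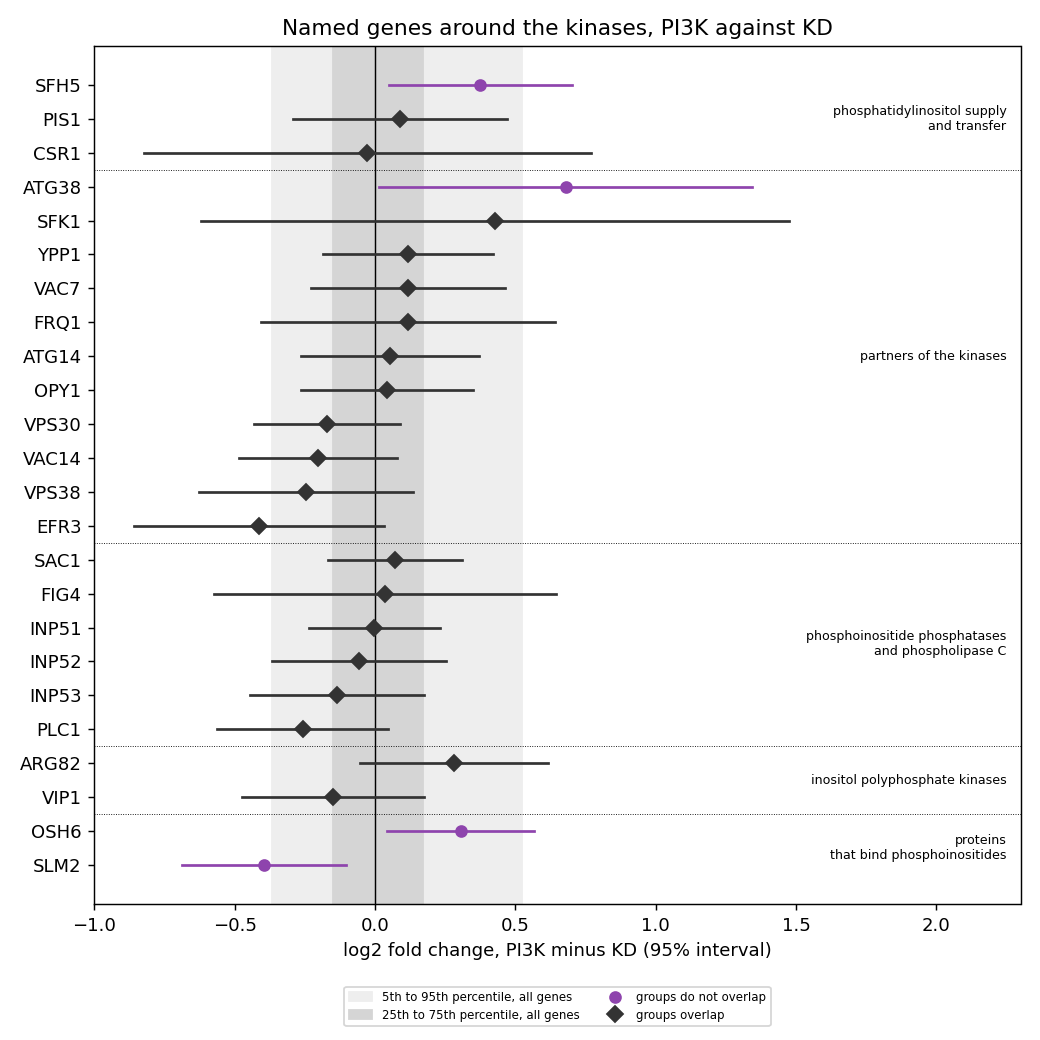
Log2 fold change of PI3K minus KD (x axis) for the named genes around the kinases, grouped by role, as points with 95% limma intervals from 3 arrays per group, over bands that hold the middle 50% and 90% of all genes tested. The groups lie apart for SFH5, ATG38, OSH6 and SLM2, and none of the genes passed after adjustment.

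The supply of phosphatidylinositol was represented by PIS1, which encodes its synthase, which differed by 0.09 on the log2 scale (SE 0.16, limma adjusted p = 0.871). Among the transfer proteins of the Sec14 family, SFH5 had the smallest p, with values of 10.94, 10.89 and 10.89 in PI3K and 10.27, 10.66 and 10.66 in KD. Its groups did not overlap, and they differed by 0.38 (SE 0.14, limma adjusted p = 0.283), and by 0.25 without KD 1. CSR1, of the same family, was the 1 gene of the 6 in this list with a lower mean in PI3K, at -0.03 (SE 0.34), a sign that turned with array weights, where it passed the threshold at 0.54 (limma adjusted p = 0.0101; 0.0101 to 0.994 over the settings). Of the 4 inositol polyphosphate kinases, ARG82 was at 0.28 (SE 0.14) and VIP1 at -0.15 (SE 0.14), each with overlapping groups.

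Proteins that bind phosphoinositides went both ways, with 15 of 25 higher and 10 lower and a median of 0.06. The groups lay apart for 10 of the 25, 5 higher and 5 lower in PI3K, where 20.7% of all genes had their groups apart. The list was chosen with earlier results known, so this count is a description and was not tested. SLM2, whose product binds PIP2 at the plasma membrane and acts with the kinase complex TORC2, had the smallest p of the list. Its values were 7.96, 8.21 and 7.89 in PI3K and 8.48, 8.36 and 8.40 in KD. The groups did not overlap, and their means differed by -0.40 (SE 0.12, limma adjusted p = 0.231). OSH6, a lipid transfer protein of the oxysterol-binding family, had values of 10.48, 10.38 and 10.63 in PI3K and 10.20, 10.19 and 10.18 in KD. Here too the groups lay apart, in the other direction, by 0.31 on the log2 scale (SE 0.11, limma adjusted p = 0.274).

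For scale, the largest response on these arrays among the reference genes was that of PRM5, a reporter of cell wall stress, which rose by 2.69 on the log2 scale (SE 0.17, limma adjusted p = 0.00447). The 95% interval of MSS4 extends to -0.78, that of STT4 to -0.69 and that of LSB6 to -0.62, and the intervals of the other 4 kinase genes lie between -0.62 and 0.56. A change of 2-fold, or 1 on the log2 scale, in either direction is outside all 7 intervals, which are not adjusted for the number of genes. The values are relative to the signal of each array after normalisation, so less transcript in every cell and fewer cells that hold it cannot be told apart.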

How the data were processed

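Total RNA was hybridised to 1-colour Affymetrix arrays, per the labels' protocols. The authors' deposited table holds 5716 probe sets on 6 arrays, made with GCRMA per the submitters' processing notes, with no version given. The values the authors deposited are taken as log2, from their range of 2.49 to 14.70 and from GCRMA's usual output, since no log base is stated. Background and saturation could not be checked, as scanner signal was not used here, and precision is limited by the number of arrays.

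Probe sets were named through the platform's annotation, updated by gene identifier to the R64 gene table: 5498 had 1 gene, 0 had several and 218 had none. The probe set with the highest mean stood for a gene, and a gene was tested where its log2 value was at least 4 on at least 3 arrays. PI3K was compared with KD with limma 3.58.1 in R 4.3.3 (lmFit, eBayes, two-sided, 4 residual and 2.97 prior degrees of freedom) and Benjamini-Hochberg adjustment. The test was checked on simulated data in which noise was drawn independently for each gene and array. That check does not cover variation that genes share across the arrays. Lengths come from the same gene table. The length trend was removed from each array by loess with a span of 0.5 on log length, a step added after seeing the data. Plots used matplotlib 3.10.9 (Python 3.11.15).

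The members, lists and settings were chosen with earlier results of these data known. Named were the 7 kinases, a fixed set of genes of the wider list (1 of which is not reported here), the gene of each of its lists with the smallest p each way, reference genes, and the genes closest in pattern to each kinase. UME6, the neighbours named for STT4 and LSB6 and the genes of the closing observations were singled out after their values were seen. UME6 was also named by the rule on pattern. Replicate numbers are shared by the groups, but residuals of same-numbered arrays correlated at -0.49, 0.48 and 0.39, so the samples were not taken as paired.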

Additional observations from a re-analysis of the deposited data

How the results depend on the processing

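Of 16 other settings, 15 were chosen ahead of this account with earlier results known, and removal of the length trend was added after seeing the data. The count of all genes called, 13 as reported, was 2808 with array weights, whose estimation stopped short of its convergence tolerance, 185 with the array side as a covariate, 40 with a replicate block and 25 with the length trend removed. It was 0 without KD 2, where 476 genes had an unadjusted limma p under 0.05, and 6 without KD 3, the lowest and highest when 1 array was left out. The count of kinase genes called was 4 with array weights and 0 under each of the other settings, the replicate block included. Without KD 1, KD 2 or PI3K 3 no kinase gene had an unadjusted limma p under 0.05, and without PI3K 1 there was 1. Of all genes, 543 had one without KD 1, 502 without PI3K 3 and 439 without PI3K 1, against 777 as reported. The count of kinase genes stayed at 3 without PI3K 2 and without KD 3, where 876 and 1296 of all genes had one. Same-numbered arrays were the closest in their residuals for 2 of the 6. The median of the 7 kinase genes, -0.11 as reported, was 0.00277 with the length trend removed and -0.29 without KD 3.

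Signs turned as follows, in no case with a call as reported; the causes were not tested. With array weights the log2 fold change was -0.030 for FAB1, -0.12 for FRQ1, 0.0057 for INP51, 0.54 for CSR1 (past the threshold) and -0.22 for FIG4. With the array side as a covariate it was 0.052 for VPS15 and 0.00972 for INP52. With quantile normalisation it was -0.077 for ATG14 and 0.00518 for INP51, and with each array centred on its median 0.016 for INP51. With the length trend removed it was 0.00277 for PIK1, 0.041 for VPS15, -0.16 for OPY1, -0.14 for ATG14, 0.11 for INP51, 0.065 for INP52 and -0.022 for PIS1. When each array was left out in turn, the log2 fold change ranged from -0.22 to 0.014 for PIK1, from -0.022 to 0.14 for VPS34, from -0.35 to 0.052 for VPS15, from -0.018 to 0.25 for FAB1 and from -0.12 to 0.28 for FRQ1. The same ranges were -0.056 to 0.098 for OPY1, -0.011 to 0.14 for ATG14, -0.27 to 0.22 for FIG4, -0.021 to 0.015 for INP51, -0.17 to 0.017 for INP52 and -0.022 to 0.23 for PIS1. For CSR1 the range was -0.22 to 0.32. Of the 384 results of the 24 named genes around the kinases under these settings, 346 kept direction and side of the threshold, 11 kept direction and passed with array weights and 27 turned sign, 1 of them, CSR1 with array weights, with a call.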

Other observations

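The oxysterol-binding proteins carry lipids between membranes, several of them in exchange for PI4P, the product of the PI 4-kinases. All 7 genes of the family were tested, and they were singled out after their values were seen. OSH6 and HES1 had higher values on every PI3K array than on any KD array, with log2 fold changes of 0.31 (SE 0.11) and 0.32 (SE 0.12). HES1 was dim, at 4.87 to 5.39 on the log2 scale. OSH3 had lower values on every PI3K array, at -0.19 (SE 0.10). OSH7 (0.25), KES1 (-0.11), SWH1 (-0.10) and OSH2 (-0.03) had overlapping groups. Of all genes tested, 10.2% had their groups apart with PI3K higher and 10.5% with PI3K lower. None of the 7 passed, with limma adjusted p-values of 0.274 for OSH6, 0.299 for HES1 and 0.485 for OSH3.

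IPK1, an inositol polyphosphate kinase, was the 1 gene of the wider list that passed with the array side as a covariate, at a log2 fold change of 0.50 (limma adjusted p = 0.0465) in place of 0.22 (adjusted p = 0.829). That fit called 3.46% of all genes. Since the sides were found from the same values, a p-value with them in the fit is too small.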
